A study of Mus musculus with 42 samples.

Results

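Skeletal muscle genes were followed across arrays of mouse skin and skin tumours. The list held 34 genes, taken by annotated gene symbol from the contractile apparatus, the calcium machinery and the energy supply of muscle fibres. On the first array design 45 probes carried 32 of these symbols, among 14442 named genes, and on the second design 51 probes carried 32, with 30 genes on both. Myh1 and Myh4 had a probe only on the second design, and Trdn and Cacna1s only on the first.

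The study hybridised total RNA of whole tissue against a common mouse reference RNA, with sample and reference in different dyes. On the first design were 6 arrays of untreated skin. Papillomas classed as low risk took 10 arrays, those classed as high risk another 10, and squamous cell carcinomas 6. The second design held 10 papillomas whose labels give no risk class, called unlabelled papillomas here. Every tumour came from female Sencar mice, a stock bred for sensitivity to skin carcinogenesis, initiated at 7 to 8 weeks of age and given DMBA and TPA, the initiator and the promoter of the classical skin carcinogenesis protocol. For the carcinomas and unlabelled papilloma 3 the labels add that the treatment ran for many weeks. Normal skin was labelled adult and untreated, with no strain, sex or body site given, so the normal skins differed from the tumours in treatment, and whether they shared the stock is not known here. No label states how deeply the skin was cut or whether muscle was trimmed away, and none says that samples came from separate mice. The normal skins carry different codes, while some papillomas share a code stem that differs only in its last letter. The p-values measure the spread between these samples.

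Mouse skin rests on a thin sheet of striated muscle, the panniculus carnosus, which lies under the fat layer and can be cut out with the skin. In a striated fibre, actin thin filaments slide along myosin thick filaments between Z-discs when calcium, released from the sarcoplasmic reticulum, binds troponin. Fast and slow fibres use different troponin and myosin genes, and most of these genes have little known expression in epidermal cells. Desmin and a few other members are also made by smooth muscle, which skin holds in vessel walls and hair erector muscles.

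Each value is the log2 of the ratio of sample to reference, centred on the array median, so 0 is the middle probe of an array and a value of 1 lies 1 log2 unit above it. The reference is a pool of many tissues, whose own muscle RNA sets the zero of each gene. Levels of different genes are therefore not compared, nor are levels from the 2 designs. In bulk tissue, fewer muscle fibres and less muscle RNA per fibre cannot be told apart.

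Several arrays stood apart and bear on what follows. The labels of low-risk 1 and low-risk 3 name 1 tumour with the dyes exchanged, and those arrays were averaged to 1 sample, called low-risk 1 from here on, which left 31 labelled samples. The 2 arrays were not alike (r = 0.306, median difference 1.148), and low-risk 3 was closer to several other tumours than to low-risk 1. Singly they gave -1.14 and -4.70 for Acta1, 2.66 and -3.19 for Actn3 and -2.67 and 0.70 for Des, so the averaged values of this tumour hide wide disagreement. Normal skin 1 and carcinoma 6 were nearly alike (r = 0.984 across 16718 probes, median difference 0.065), although their labels differ. The next most alike pair of arrays was normal skins 4 and 6 (r = 0.876). Clustering by which probes were empty divided the first design into 5 array sets, of which set A held normal skin 1, high-risk 6 to 9 and carcinomas 5 and 6. Set B held normal skin 2, low-risk 6, 7 and 10, high-risk 5 and carcinomas 1 to 4. Normal skins 3 to 6 were in set C together with high-risk 10. Set D was all low-risk and set E all high-risk.

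Promoters are shown for the 4 muscle genes that fell in a tumour group, because these genes share a tissue and because binding letters of muscle factors can be read in them. The RefSeq promoter table, on build GRCm38.p6, held 26 of the 34 genes. Each line gives the 250 bases before the start of transcription, 5′ to 3′ on the strand of the gene. Capitals mark the E-box CANNTG, bound by myogenic factors and many others, the serum response element known as CArG, and the TATA letters TATAAA, each searched on both strands. Acta1 is at chr8:123894776-123895025 on the minus strand, Tnnc2 at chr2:164779735-164779984 on the minus strand, Tnnc1 at chr14:31208062-31208311 on the plus strand and Sypl2 at chr3:108226600-108226849 on the minus strand.
Acta1: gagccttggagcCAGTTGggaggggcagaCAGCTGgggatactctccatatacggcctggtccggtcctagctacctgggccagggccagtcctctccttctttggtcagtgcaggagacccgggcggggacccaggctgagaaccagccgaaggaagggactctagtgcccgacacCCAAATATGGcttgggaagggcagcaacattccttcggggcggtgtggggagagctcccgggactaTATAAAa
Tnnc2: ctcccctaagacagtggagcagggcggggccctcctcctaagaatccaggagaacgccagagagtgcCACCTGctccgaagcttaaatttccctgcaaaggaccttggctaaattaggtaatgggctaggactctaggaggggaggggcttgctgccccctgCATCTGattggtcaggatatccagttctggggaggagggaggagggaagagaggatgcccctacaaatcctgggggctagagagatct
Tnnc1: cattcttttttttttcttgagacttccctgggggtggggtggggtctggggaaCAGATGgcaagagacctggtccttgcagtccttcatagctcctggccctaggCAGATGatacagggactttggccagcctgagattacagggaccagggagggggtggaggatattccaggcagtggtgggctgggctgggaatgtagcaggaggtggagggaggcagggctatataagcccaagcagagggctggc
Sypl2: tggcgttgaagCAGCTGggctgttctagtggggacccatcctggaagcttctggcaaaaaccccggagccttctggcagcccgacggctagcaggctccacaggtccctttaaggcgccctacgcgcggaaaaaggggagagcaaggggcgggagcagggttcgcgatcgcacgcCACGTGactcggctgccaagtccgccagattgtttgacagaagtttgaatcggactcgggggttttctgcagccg

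Each of the 4 held 2 E-boxes, and 66.2% of all 32851 promoters of this length hold at least 1. Acta1 alone of the 4 had a CArG match, which 1.47% of all promoters have, and alone of the 4 had TATAAA, which 12.4% have. None of the 4 had a MEF2 match, the letters of another muscle factor, which 2.92% of all promoters have. Over the 31 promoter entries of the 26 genes, 24 held an E-box, 5 a MEF2 match (Myh1, Myh4, Myh8, Pvalb and Ttn), 4 a CArG match (Acta1, Ldb3 and Myh4) and 6 TATAAA. Each motif was counted whether or not it overlapped another. A match describes the letters and is no measured binding site.

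Muscle genes were most often among the highest ratios in 2 of the 6 normal skins. In normal skin 4, 11 of 30 muscle genes lay in the top 5% of the array's log2 ratios, and in normal skin 6 it was 10 of 30. Normal skins 3 and 2 had 6 and 4, and normal skins 1 and 5 had 2 each. Low-risk papillomas had 0 to 3, high-risk papillomas 1 to 5 and carcinomas 2 to 5, so normal skins 4 and 6 were the only labelled samples above 6. For 7 of the 30 genes (Acta1, Actn2, Atp2a1, Myoz1, Pygm, Tnnc2 and Trdn) the 2 highest of all samples, by rank within the array, were normal skins 4 and 6. No other pair of samples was highest for more than 2 muscle genes, and over all 18904 probes tested the same pair led 0.661%. These counts describe the arrays and were not tested.

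**Figure D1:**
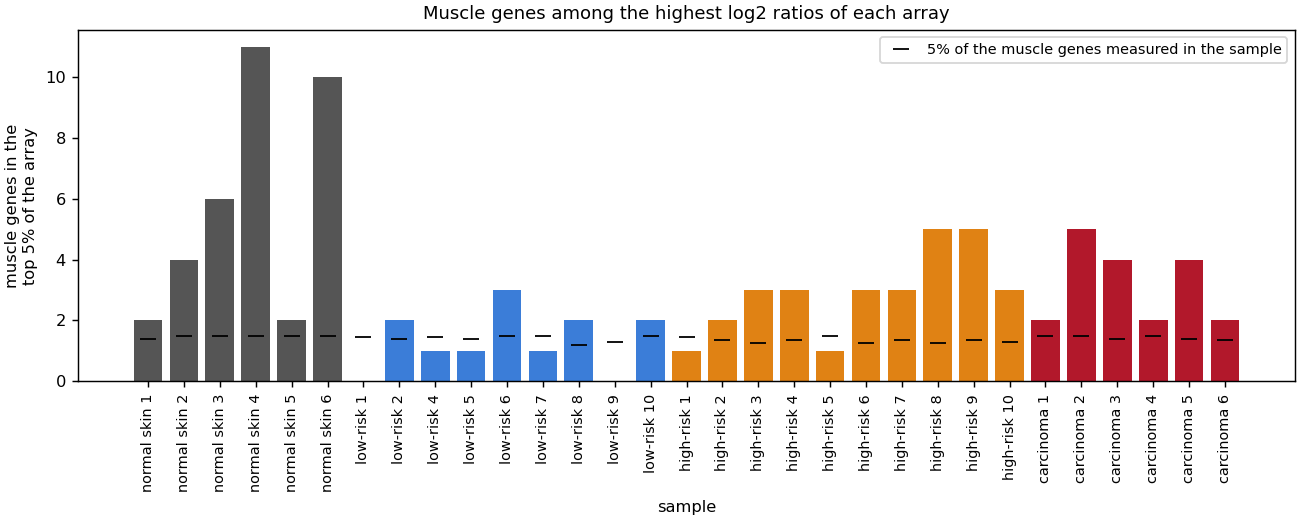
Number of muscle genes (vertical axis, 30 genes with 1 probe each) among the top 5% of log2 ratios of each of the 31 labelled samples (horizontal axis; grey normal skin, blue low-risk, orange high-risk, red carcinoma). The short black line is 5% of the muscle genes measured in that sample. Normal skins 4 and 6 reach 11 and 10, and every other sample is at 6 or below.

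**Figure D2:**
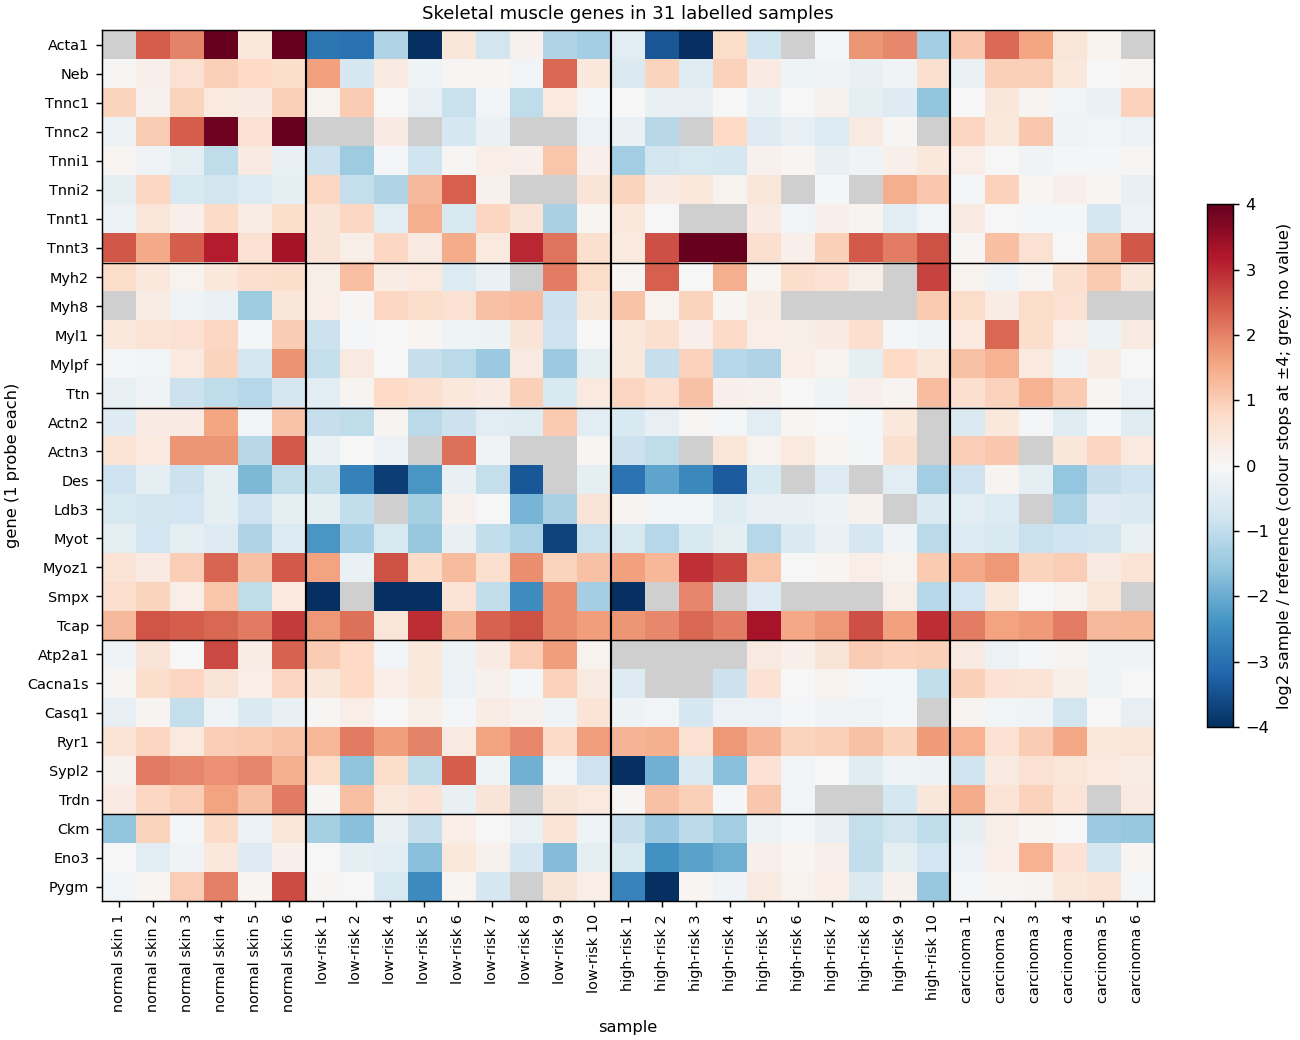
Log2 ratio of sample over reference for the 30 tested muscle genes (rows, in blocks of thin filament, thick filament and titin, Z-disc, calcium handling and energy supply) in the 31 labelled samples (columns). Red is above the array median, blue below and grey has no value. Acta1, Tnnc2, Atp2a1, Myoz1 and Pygm are red in normal skins 4 and 6, while other rows, such as Tnni1 and Myot, are not.

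Of the 32 genes on the first design, 30 had enough values to be tested, with Mb and Pvalb left out. In low-risk papillomas against normal skin, 2 muscle genes fell, Acta1 and Tnnc2, and 1 rose, Ttn. That is 3 of 30, beside 7.55% of all 18904 probes called (3.61% lower and 3.94% higher), a share of the same order. In high-risk papillomas 4 fell, Acta1, Tnnc2, Tnnc1 and Sypl2, and Ttn again rose, beside 5.01% of all probes (2.44% lower, 2.57% higher). In carcinomas Ttn rose and none fell, beside 1.16% of all probes (0.905% lower, 0.254% higher). For carcinomas the split over all probes hung on the scaling, since 21.9% of 219 calls were higher and, with quantile normalisation, 41.1% of 890. At an unadjusted p under 0.05, limma placed 4 muscle genes higher and 10 lower in low-risk papillomas. It placed 3 and 10 in high-risk papillomas, and 2 and 2 in carcinomas. Here and below, the share of all probes at that unadjusted threshold is not given, so such counts have no background beside them. The 3 comparisons share the normal skins. The median change over the 30 genes was -0.46 in low-risk papillomas, -0.37 in high-risk papillomas and -0.20 in carcinomas, where the median of all probes was -0.02, -0.00 and -0.00. Of the 30, 24, 23 and 20 lay below 0, beside 51.3%, 50.3% and 50.2% of all probes.

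None of these counts held without normal skins 4 and 6, an alternative chosen after the data had been seen. With both left out, 0 of 30 muscle genes were called in each of the 3 comparisons, where limma still called 334, 88 and 14 of 18344 probes and 7, 7 and 2 muscle genes had an unadjusted p under 0.05. Blocking on the array set also left 0 muscle genes, beside 2, 12 and 10 of 18904 probes, with 5, 5 and 1 muscle genes at an unadjusted p under 0.05 in limma. Weighting arrays by their quality moved the counts the other way, to 15, 12 and 6. The share of all probes called with weights is not given here, so these counts cannot be read as a result about muscle genes.

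**Figure D3:**
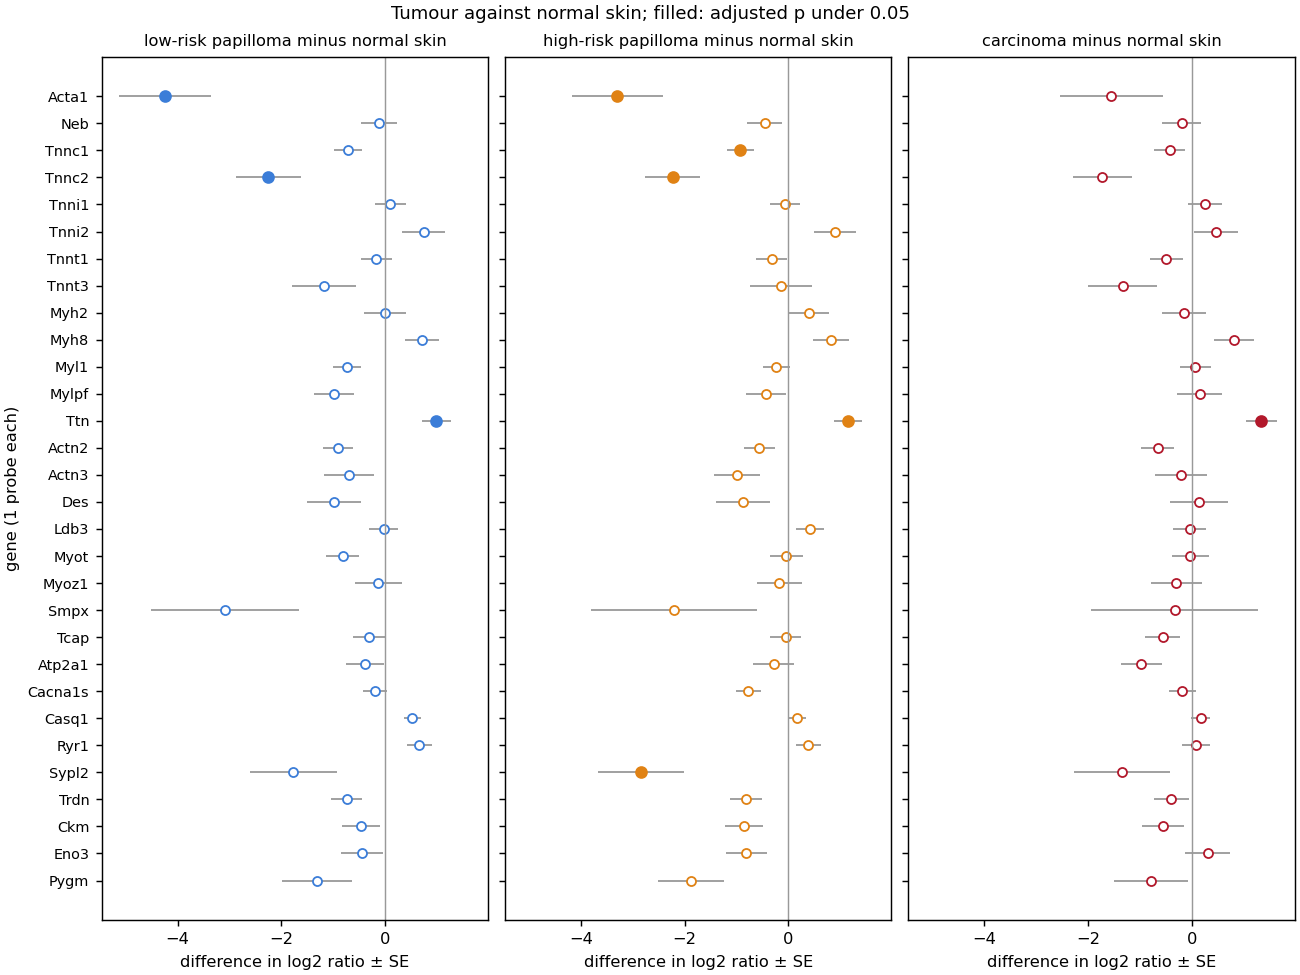
Difference in log2 ratio between each tumour group and normal skin for the 30 muscle genes, with the standard error of the fit. Filled points have an adjusted p under 0.05. Acta1 lies farthest to the left in low-risk and high-risk papillomas, at -4.24 and -3.30, and Ttn is filled on the right in all 3 panels.

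The largest single difference was in the thin filament. Acta1, skeletal muscle alpha-actin and the main protein of the thin filament, was at 2.44, 1.99, 4.27, 0.42 and 4.14 in normal skins 2 to 6 and had no value in normal skin 1. In 9 low-risk papillomas it ran from -4.47 through a median of -1.22 to 0.46, and in 9 high-risk papillomas from -4.11 through -0.46 to 1.92. The 5 carcinomas with a value were at 1.07, 2.26, 1.59, 0.48 and 0.12. Normal skins 2, 4 and 6 lay above every tumour, normal skins 3 and 5 did not, and low-risk 6 was the highest papilloma of its class.

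Acta1 fell by 4.24 ± 0.88 (SE) on the log2 scale in low-risk papillomas, 18.9-fold (limma adjusted p = 0.00404), with 9 of 9 below the mean of normal skin. It fell by 3.30 ± 0.88 in high-risk papillomas, 9.83-fold (limma adjusted p = 0.0273), again 9 of 9. The carcinoma difference was -1.55 ± 1.00 (limma adjusted p = 0.644). Leaving out any 1 sample kept the low-risk call (-4.80 to -3.84). The high-risk call was lost without normal skin 3, 4 or 6 or without high-risk 2 or 3 (-3.46 to -2.86, limma adjusted p 0.0506 to 0.100). Without both normal skins 4 and 6 the low-risk difference was -3.20 ± 1.03 (limma adjusted p = 0.100) and the high-risk difference -2.26 ± 1.03 (p = 0.353, adjusted by limma). Blocked on the array set they were -3.71 ± 1.46 (limma adjusted p = 0.652) and -3.16 ± 1.24 (p = 0.314, adjusted by limma). Within set B, which had 1 normal skin and is given without a test, the mean of the 3 low-risk papillomas differed from normal skin 2 by -2.98.

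Actin genes are closely alike in their coding parts, and whether the Acta1 probe also reads other actins was not tested. Acta2, the smooth muscle actin, fell by 2.67 ± 0.56 in low-risk papillomas (limma adjusted p = 0.00390) and by 1.94 ± 0.55 in high-risk papillomas (limma adjusted p = 0.0337). Normal skins 3, 4 and 6 were at 1.69, 1.64 and 1.15 for Acta2 and at 1.99, 4.27 and 4.14 for Acta1.

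Tnnc2, troponin C of fast fibres, was at -0.22, 1.03, 2.42, 3.89, 0.62 and 4.43 in normal skins 1 to 6, with a median of 1.72. Only 4 low-risk papillomas had a value, 0.32, -0.70, -0.28 and -0.22, and 8 high-risk papillomas ran from -1.11 through -0.30 to 0.80. The 6 carcinomas ran from -0.25 through 0.15 to 1.06. Normal skins 3, 4 and 6 lay above every tumour, while normal skin 1 lay among them. Tnnc2 fell by 2.25 ± 0.63 in low-risk papillomas, 4.75-fold (limma adjusted p = 0.0302; 4 of 4 below the mean of normal skin). It fell by 2.23 ± 0.53 in high-risk papillomas, 4.68-fold (limma adjusted p = 0.0167; 8 of 8).

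The Tnnc2 calls rested on single samples. The low-risk call was lost without normal skin 3, 4 or 6 or low-risk 6, 7 or 10 (-2.25 to -1.77, limma adjusted p 0.0557 to 0.0777), and the high-risk call without normal skin 4 or 6 (-1.85 to -1.75, limma adjusted p 0.0562 to 0.0578). Blocked on the array set the differences shrank to -1.05 ± 0.81 (limma adjusted p = 0.899) and -0.46 ± 0.72 (limma adjusted p = 0.893). Set A had only normal skin 1, the near-identical partner of carcinoma 6, and its value of -0.22 lay among the 4 high-risk papillomas of that set (-0.56 to 0.34), and no test against that 1 array is given. In carcinomas the difference was -1.72 ± 0.57 (limma adjusted p = 0.162), and without the near-identical normal skin 1 and carcinoma 6 it passed, at -2.06 ± 0.55 (limma adjusted p = 0.0462).

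Tnnc1, troponin C of slow fibres and of heart, ran over a narrower range. It was at 0.90, 0.18, 0.91, 0.40, 0.33 and 0.96 in the normal skins and from -1.58 through -0.28 to 0.16 in the 10 high-risk papillomas, with no overlap. Low-risk papillomas ran from -1.03 through -0.09 to 1.01 and carcinomas from -0.27 through 0.06 to 0.91. Tnnc1 fell by 0.93 ± 0.26 in high-risk papillomas, 1.90-fold (limma adjusted p = 0.0354; 10 of 10 below the mean of normal skin). Among the 30 muscle genes and the 3 comparisons with normal skin, this was the only one in which the groups did not overlap. The gap was narrow, from 0.16 in the highest high-risk papilloma to 0.18 in normal skin 2. The share of all probes without overlap is not given here, so the lack of overlap is no trait particular to Tnnc1. Normal skin 1 and carcinoma 6 had almost the same value, 0.90 and 0.91. Its call was lost without any 1 of normal skins 1, 3, 4, 5 and 6 or high-risk 2, 3 and 10 (-0.98 to -0.79, limma adjusted p 0.0515 to 0.103). Without normal skin 1 and carcinoma 6 together it was -0.87 ± 0.28 (limma adjusted p = 0.0510), and blocked on the array set -1.33 ± 0.34 (limma adjusted p = 0.120).

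The other 5 thin filament genes passed in no comparison. Tnnt3, the fast troponin T, was at 3.14 and 3.32 in normal skins 4 and 6 but at 4.95 and 4.26 in high-risk 3 and 4, so its highest values were in papillomas. Tnni2, the fast troponin I, ran from -0.74 to 0.84 in normal skin, where skins 4 and 6 were at -0.74 and -0.40. Low-risk 6 held its highest value, 2.39. Tnnt1 and Tnni1, the slow troponin T and troponin I, ran from -0.22 to 0.76 and from -1.02 to 0.36 in normal skin. Neb, the giant ruler protein nebulin, ran from 0.04 to 0.96 in normal skin at one of its probes and from -0.91 to 0.52 at the other. The median difference of the 8 thin filament genes was -0.44 in low-risk papillomas, -0.39 in high-risk papillomas and -0.46 in carcinomas.

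**Figure D4:**
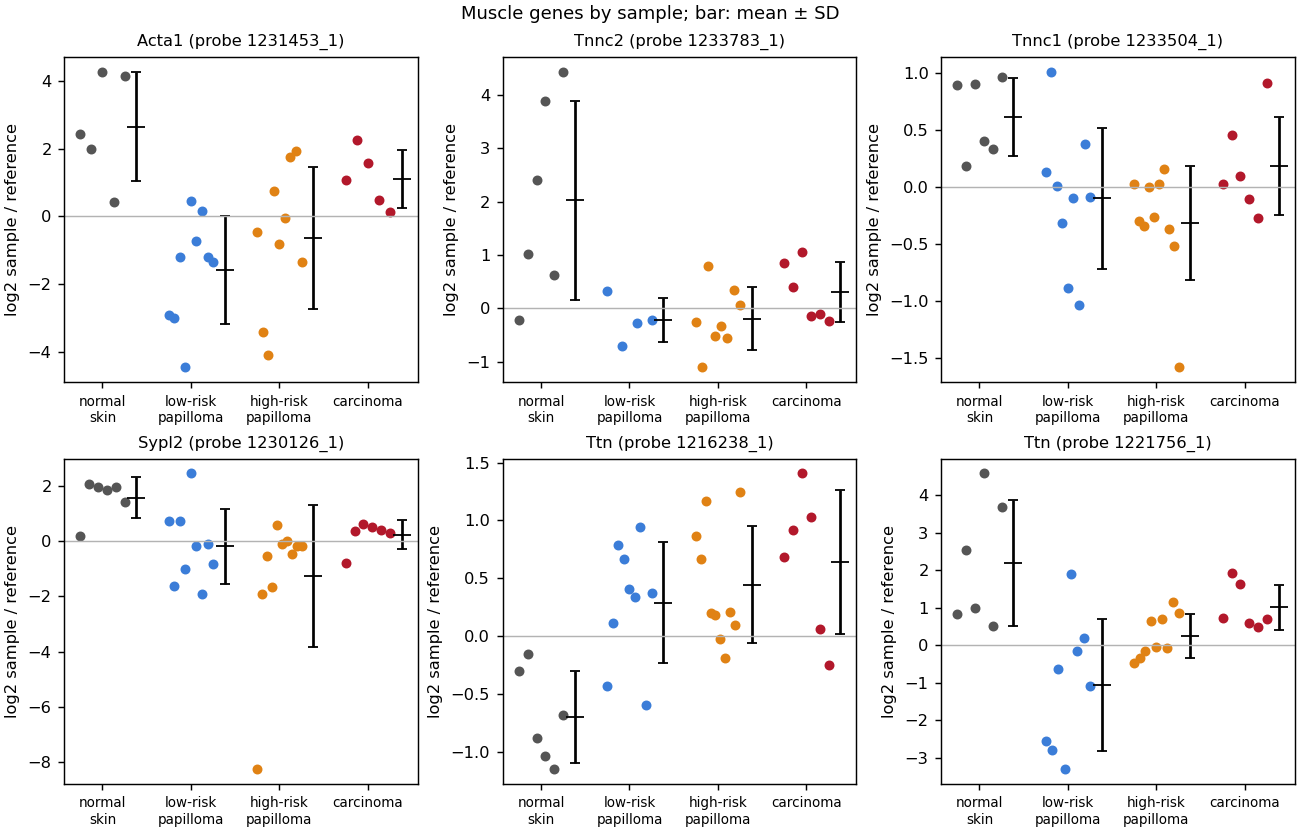
Log2 ratio of sample over reference for the 5 muscle genes that passed in a comparison, with Ttn at 2 probes, in the 4 groups (points are samples, the bar is the mean ± SD). For Acta1 and Tnnc2, normal skins 4 and 6 reach 4.27, 4.14, 3.89 and 4.43, above every tumour. The 2 Ttn panels run in opposite directions.

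Titin gave contradictory readings. Ttn encodes the giant spring of the sarcomere, and the probe with the most values, 1216238_1, was at -0.30, -0.15, -0.87, -1.03, -1.15 and -0.68 in the normal skins. It ran from -0.60 through 0.38 to 0.94 in low-risk papillomas, from -0.18 through 0.21 to 1.24 in high-risk papillomas and from -0.24 through 0.80 to 1.41 in carcinomas. Normal skin lay low and overlapped the lowest tumours of each group.

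At that probe Ttn rose by 0.99 ± 0.28 in low-risk papillomas (1.98-fold, limma adjusted p = 0.0251; 9 of 9 above the mean of normal skin). It rose by 1.14 ± 0.27 in high-risk papillomas (2.21-fold, limma adjusted p = 0.0129; 10 of 10) and by 1.34 ± 0.30 in carcinomas (2.53-fold, limma adjusted p = 0.0208; 6 of 6). The low-risk call was lost without any 1 of normal skins 3 to 6 (0.90 to 0.99, limma adjusted p 0.0527 to 0.0724), and also without the dye-swapped array low-risk 3 (0.89 ± 0.31, limma adjusted p = 0.0901). The carcinoma call was lost without any 1 of normal skins 4, 5 and 6 or carcinomas 1 to 4 (1.19 to 1.34, limma adjusted p 0.0521 to 0.0704), while no single omission ended the high-risk call (1.05 to 1.25). Blocked on the array set they were 0.67 ± 0.44, 1.10 ± 0.33 and 1.18 ± 0.36 (limma adjusted p = 0.865, 0.167 and 0.419).

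A second Ttn probe, 1221756_1, was at 0.84, 2.54, 0.99, 4.59, 0.52 and 3.69 in normal skins 1 to 6, and skins 2 to 6 stood in the same order as for Acta1. Low-risk papillomas with a value ran from -3.29 through -0.85 to 1.91, high-risk papillomas from -0.46 through -0.05 to 1.15 and carcinomas from 0.48 through 0.72 to 1.92. When every probe was tested on its own, an alternative chosen after the data had been seen, this probe fell by 3.24 ± 0.65 in low-risk papillomas, 9.44-fold (limma adjusted p = 0.00298; 8 of 8 below the mean of normal skin). The 2 arrays averaged as low-risk 1 were at 1.86 and -6.97 there. In high-risk papillomas it differed by -1.93 ± 0.63 (limma adjusted p = 0.0717) and in carcinomas by -1.18 ± 0.69 (limma adjusted p = 0.586). The other Ttn probes, 1216240_1 and 1216244_1, passed in none of these. With the mean of the 4 probes the high-risk difference turned to -0.11. Which exons the probes read is not given in the sources used here.

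Among all 42 muscle probes tested singly, 5 were called in low-risk papillomas against normal skin, 6 in high-risk papillomas, 1 in carcinomas and 1 between the papilloma classes. The shares over all 20367 probes were 7.19%, 4.92%, 1.05% and 0.594%.

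The other thick filament genes passed in no comparison. Mylpf and Myl1, the fast regulatory and essential light chains, differed by -0.99 ± 0.39 and -0.74 ± 0.27 in low-risk papillomas (limma adjusted p = 0.118 and 0.0878). Carcinoma 2 had the highest Myl1 of all samples, 2.31, where the other carcinomas lay from -0.22 to 0.70, and the same tumour had the highest carcinoma value of Acta1. Mylpf was at 1.81 in normal skin 6, at 0.89 in normal skin 4 and at 1.41 in carcinoma 2. Myh2, the heavy chain of fast oxidative fibres, ran from 0.14 to 0.73 in normal skin and reached 2.69 in high-risk 10. Myh8, the perinatal heavy chain, differed by 0.71 ± 0.32 in low-risk papillomas (limma adjusted p = 0.180). The median difference of these 5 genes was -0.00, 0.39 and 0.15 in the 3 tumour groups.

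None of the 8 Z-disc and linked genes passed, although all 8 differences lay below 0 in low-risk papillomas (median -0.76, beside -0.02 over all probes). Actn2, an alpha-actinin of the Z-disc, was at 1.58 and 1.15 in normal skins 4 and 6 and at or below 0.32 in the other 4, and differed by -0.91 ± 0.30 in low-risk papillomas (limma adjusted p = 0.0555). Its second probe, 1232231_1, did not repeat this, with means of 0.422 in normal skin and 0.415 in low-risk papillomas. There normal skins 4 and 6 were at 0.65 and 0.565, below low-risk 1 and 9 at 1.08 and 1.04. Actn3, the fast-fibre alpha-actinin, was at 1.76, 1.76 and 2.45 in normal skins 3, 4 and 6 and at -1.12 in normal skin 5. Myoz1, which tethers calcineurin at the Z-disc, was at 2.33 and 2.44 in normal skins 4 and 6, yet reached 2.92 in high-risk 3, 2.67 in high-risk 4 and 2.56 in low-risk 4. The high values of Myoz1 and of Tnnt3 in high-risk 3 came without Acta1, which was at -4.11 there.

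Tcap, the titin cap protein telethonin, was above 0 in every labelled sample (0.49 to 3.29) and differed by -0.32 ± 0.31 in low-risk papillomas (limma adjusted p = 0.574). Ldb3 and Myot, scaffolds of the Z-disc, ran from -0.84 to -0.35 and from -1.21 to -0.34 in normal skin, so both lay below 0 in normal skins 4 and 6 as well. Des, the intermediate filament desmin, was below 0 in all 6 normal skins (-1.79 to -0.35) and above 0 only in carcinoma 2 (0.12). Des reached -3.75 in low-risk papillomas and -3.31 in high-risk papillomas. Smpx, a small protein of stretch-loaded fibres, ran from -1.02 to 1.11 in normal skin and down to -7.60 in low-risk 4 and -9.62 in high-risk 1. Its difference of -3.09 ± 1.43 in low-risk papillomas did not pass (limma adjusted p = 0.189).

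In the calcium machinery Sypl2, mitsugumin 29 of the triad, fell in high-risk papillomas. It was at 0.16, 2.07, 1.96, 1.84, 1.95 and 1.42 in the normal skins. High-risk papillomas ran from -8.24 through -0.34 to 0.58, low-risk papillomas from -1.92 through -0.17 to 2.44 and carcinomas from -0.81 through 0.38 to 0.61. Here normal skins 2, 3 and 5 were as high as 4 and 6, normal skin 1 lay among the tumours, and high-risk 1 was far below the rest.

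Sypl2 fell by 2.84 ± 0.82 in high-risk papillomas, 7.18-fold (limma adjusted p = 0.0386; 10 of 10 below the mean of normal skin). Omitting any 1 of normal skins 2 to 6 or high-risk 2, 3 and 4 ended the call (-2.92 to -2.74, limma adjusted p 0.0510 to 0.0899). Without high-risk 1 the difference was -2.07, still called. Blocked on the array set it was -1.36 ± 0.96 (limma adjusted p = 0.636), and set A, with normal skin 1 alone, is given no test. The second Sypl2 probe, 1220337_1, ran from -0.44 to 0.63 in normal skin and from -0.91 to 1.07 in high-risk papillomas and did not pass.

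Atp2a1, the fast-fibre calcium pump of the sarcoplasmic reticulum, was at 2.63 and 2.36 in normal skins 4 and 6 and from -0.14 to 0.53 in the other 4. Trdn, triadin of the release complex, was at 1.60 and 2.09 in these skins and from 0.32 to 1.19 in the others, and differed by -0.82 ± 0.30 in high-risk papillomas (limma adjusted p = 0.116). Cacna1s, the voltage sensor of the T-tubule, differed by -0.78 ± 0.24 there (limma adjusted p = 0.0580). Casq1, the calcium store protein calsequestrin, ran the other way, from -0.95 to 0.10 in normal skin and from -0.15 to 0.55 in low-risk papillomas (0.52 ± 0.17, limma adjusted p = 0.0534). The first-design probe of Pvalb, the calcium buffer parvalbumin, had 18 values over the 4 groups, from -2.04 to 0.46, and was not tested.

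Ryr1, the calcium release channel, had 7 probes that did not run together. The probe with the most values, 1216449_1, differed by 0.66 ± 0.25 in low-risk papillomas (limma adjusted p = 0.0965). Another, 1230630_1, was at 0.09, -0.31, -1.11, -0.40, -0.53 and -0.80 in normal skin. It ran from -0.17 through 2.69 to 3.88 in low-risk papillomas and from -0.21 through 1.61 to 3.64 in high-risk papillomas, so 8 of 9 low-risk and 8 of 10 high-risk papillomas lay above every normal skin. In set A, high-risk 6 to 9 were at 0.24, -0.13, 0.37 and 1.235 there, and normal skin 1 at 0.09. When every probe was tested on its own, a fit chosen after the data had been seen, this probe rose in both papilloma classes. The rise was 2.92 ± 0.54 in low-risk papillomas, 7.56-fold, and 1.99 ± 0.53 in high-risk papillomas, 3.98-fold (limma adjusted p = 0.00133 and 0.0257). Its low-risk rise is opposite in direction to the fall of Acta1 in the same tumours.

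The energy genes passed in no comparison with 1 probe per gene. Pygm, muscle glycogen phosphorylase, was at 2.00 and 2.60 in normal skins 4 and 6, at 0.99 in normal skin 3 and from -0.10 to 0.08 in the other 3. High-risk papillomas ran from -5.46 through -0.03 to 0.37 for Pygm (-1.88 ± 0.64, limma adjusted p = 0.0834). Ckm, muscle creatine kinase, was highest in normal skin 2 (0.90) and at -1.59 in normal skin 1, and differed by -0.85 ± 0.36 in high-risk papillomas (limma adjusted p = 0.171). Eno3, the muscle enolase, was highest in carcinoma 3 (1.40) at probe 1227526_1. Its other probe, 1234522_1, ran from -0.99 through 0.77 to 1.88 in low-risk papillomas and from -1.38 through -0.55 to 0.31 in high-risk papillomas. With every probe tested on its own, that probe was lower in high-risk than in low-risk papillomas by 1.27 ± 0.29. On the log2 scale the difference was coded as -1.27 (limma adjusted p = 0.0354). Mb, the oxygen store myoglobin, had 21 values on the first design, from -1.78 to 1.43, and was not tested.

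Among the tumour groups no muscle gene passed with 1 probe per gene. The counts were 0 of 30 for high-risk against low-risk papillomas, carcinomas against low-risk papillomas and carcinomas against high-risk papillomas, beside 0.667%, 1.12% and 0.0423% of all probes. At an unadjusted p under 0.05 limma gave 4, 7 and 2 muscle genes. The median differences were 0.06, 0.21 and 0.28. The largest differences were between carcinomas and low-risk papillomas, at 2.76 ± 1.51 for Smpx (limma adjusted p = 0.379) and 2.69 ± 0.88 for Acta1 (limma adjusted p = 0.116). Acta1 in high-risk 8 and 9, at 1.75 and 1.92, was as high as in the carcinomas, and high-risk 2 and 3 were at -3.43 and -4.11.

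Array sets held few normal skins each, so within-set values rest on small numbers. Set C held 4 normal skins and 1 high-risk papilloma, number 10, which had the lowest Tnnc1 and the highest Ttn (probe 1216238_1) of its class, at -1.58 and 1.24. With 1 tumour there, as with 1 normal skin in sets A and B, no p within the set is given. Normal skins 1 and 2 and most tumours fell in 1 range of the array numbers in the submitters' database, and normal skins 3 to 6 with some low-risk papillomas in another. Within the range of normal skins 3 to 6, Acta1 fell by 5.08 ± 0.93 in 3 low-risk papillomas (limma adjusted p = 0.0269). With that range as a block the low-risk difference of Acta1 was -4.60 ± 1.01 (limma adjusted p = 0.00885), and the Tnnc2 difference shrank to -0.62 ± 0.72 (limma adjusted p = 0.640). Array set and group were partly the same, and their shares in these differences cannot be told apart for sets D and E, which hold no normal skin.

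Further genes of the muscle programme were called in both directions. Of 50 further muscle genes tested, 2 rose and 3 fell in low-risk papillomas, 3 rose and 1 fell in high-risk papillomas, and 1 rose and 1 fell in carcinomas, with medians of -0.09, -0.07 and -0.05. That is 5, 4 and 2 of 50, beside 7.55%, 5.01% and 1.16% of all probes. Asb2, a ubiquitin ligase subunit of muscle, fell by 1.30 ± 0.38 in low-risk papillomas (limma adjusted p = 0.0332) and by 1.57 ± 0.38 in high-risk papillomas (limma adjusted p = 0.0133). Xirp2, an actin-binding repeat protein, fell by 1.08 ± 0.30 in low-risk papillomas (limma adjusted p = 0.0254). Hrc, a calcium-binding protein of the sarcoplasmic reticulum, rose by 2.98 ± 0.54, 1.98 ± 0.53 and 2.30 ± 0.59 in the 3 tumour groups (limma adjusted p = 0.00118, 0.0273 and 0.0476). Cacng1, a calcium channel subunit, rose by 2.31 ± 0.60 in low-risk papillomas (limma adjusted p = 0.0172). Normal skin 1 was at 3.10 for Hrc and 2.15 for Cacng1, far above normal skins 3 to 5 (-0.36 to 0.19 for Hrc).

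Of 8 regulators of myogenesis and satellite cells, none passed in low-risk papillomas or carcinomas and 1 fell in high-risk papillomas, Mef2c (-1.51 ± 0.35, limma adjusted p = 0.0106). Cdh15, Myog and Myf6 differed by 0.58, 0.58 and 0.49 in low-risk papillomas and did not pass. None of 6 genes of the nerve-muscle synapse passed. Chrnb1, Chrng, Chrne and Chrnd, subunits of the acetylcholine receptor, differed by -0.56, 0.43, 1.00 and -0.39 in low-risk papillomas. Of 11 heart genes, 1 fell in low-risk papillomas, Sln (-3.17 ± 0.92, limma adjusted p = 0.0362), which skeletal muscle also makes, and 1 rose in high-risk papillomas, Tnnt2 (1.03 ± 0.25, limma adjusted p = 0.0136). Myh6 and Ryr2 did not pass. The counts of the myogenic, synapse and heart lists stand beside 7.55%, 5.01% and 1.16% of all probes called in the 3 comparisons.

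Markers of other cells moved beside the muscle genes, and their part in the result was not tested. Of 12 smooth muscle genes, 3 fell in low-risk papillomas (Acta2, Actg2 and Mylk) and 1 in high-risk papillomas (Acta2), beside 3.61% and 2.44% of all probes lower, with medians of -0.67, -0.46 and -0.19 in the 3 tumour groups. Actg2 and Mylk fell by 2.49 ± 0.69 and 0.85 ± 0.20 in low-risk papillomas (limma adjusted p = 0.0254 and 0.00826), and Myl9 differed by -1.27 ± 0.46 (limma adjusted p = 0.0860). The median level of the smooth muscle genes ran from -0.61 to -0.02 in normal skin, from -1.85 to -0.22 in low-risk papillomas, from -1.56 to -0.11 in high-risk papillomas and from -0.66 to -0.28 in carcinomas. By this median normal skins 4 and 6 were at -0.52 and -0.02, so they did not lead the list together. Single genes differed from the median. Actg2 was at 1.06, 1.91 and 0.78 in normal skins 3, 4 and 6. In skins 1, 2 and 5 it was at -2.19, -1.72 and -1.60. Acta2 and Mylk were also higher in skins 3, 4 and 6 than in skins 1, 2 and 5. Myl9 was not, at -0.84 in skin 4 and -0.82 in skin 5.

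Fat lies directly above the muscle sheet. Of 11 fat cell genes, 2 rose and 2 fell in low-risk papillomas, 1 fell in high-risk papillomas and 1 in carcinomas. These counts and those of the lists that follow stand beside 7.55%, 5.01% and 1.16% of all probes called in the 3 comparisons. The median level of the fat cell genes was 0.34 in normal skin 4 and -0.23 in normal skin 6, within a normal range of -0.26 to 0.34. This difference between the 2 skins was not tested. Papillomas ran from -0.24 to 0.11 (low-risk) and from -1.30 to 0.02 (high-risk), and carcinomas from -0.41 to 0.07. Of 11 fibroblast genes 0, 1 and 0 fell, of 9 endothelial genes 1, 0 and 0 fell, and of 7 hair follicle genes 2 fell in each tumour group. Of 13 keratinocyte genes, 1 fell in low-risk papillomas, 1 rose and 1 fell in high-risk papillomas, and 1 fell in carcinomas. The median keratinocyte level ran from 1.16 to 2.35 in normal skin, 1.03 to 3.97 in low-risk papillomas, 0.86 to 3.25 in high-risk papillomas and 0.92 to 1.99 in carcinomas, so these markers were above the array median in every sample.

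The unlabelled papillomas were read on another design, and their values are given singly. Papilloma 10 carried the most muscle signal. For 14 of the 32 genes it ranked highest of the 10 (Acta1, Actn2, Atp2a1, Ckm, Eno3, Myh1, Myh2, Mylpf, Myot, Pygm, Ryr1, Tcap, Tnni2 and Tnnt3), where it ranked highest for 11.2% of all 25873 probes. It had 6 muscle genes in the top 5% of its array, and the other 9 had 1 or 2. Its median over the 32 genes was 0.83, beside -0.55 to 0.47 in the other 9. The rank was taken within each array, so a papilloma could lead on rank without the highest log2 ratio.

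Acta1 was at -2.62, -3.32, 0.44, 0.94, -3.51, 1.90, -2.55, -0.44, -2.61 and 2.73 in unlabelled papillomas 1 to 10. Papillomas 10 and 6 were high, 4 and 3 lay above the array median, and 1, 2, 5, 7 and 9 were far below. Myh1, a heavy chain of fast fibres, was at 2.49 in papilloma 10 at probe 1771029_1 and from -4.30 to 0.55 in the others. Its second probe gave 0.82 in papilloma 10, and 0.62 in papillomas 1 and 9. Myh4, the fastest heavy chain, was highest in papilloma 4, at 4.53, and at 0.97 in papilloma 10.

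The next muscle genes, of fast fibres and others, were each highest in papilloma 10, 6 or 4. Atp2a1 was at 2.51 in papilloma 10, 1.85 in papilloma 2 and 1.62 in papilloma 6. Tnni2 was at 2.37, 2.15 and 1.58 in the same order, and Mylpf was at 2.14 in papilloma 10 and at most 1.26 elsewhere. Pygm was above 0 only in papillomas 10 and 5 (1.15 and 0.41) and at -3.21 in papilloma 4. Tnnc2 was highest in papilloma 6, at 2.13, and Tnnt3 and Tnnc1 in papilloma 4, at 3.17 and 3.13. Papilloma 4 also had the fewest values of the 10 arrays (26373) and the widest spread (SD 2.39), so its extremes were common to many probes. Pvalb lay below 0 in all 10, highest in papilloma 10 at -0.75, and Mb was above 0 only in papilloma 6, at 0.29.

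Titin was again inconsistent between probes on this design. Of its 9 probes, 1767650_1 was at 3.76 or higher in all 10 papillomas and reached 10.86 in papilloma 2, while 1780772_1 ran from -2.51 to 3.06. Acta1 in papilloma 2 was at -3.32, so the extreme titin reading there came without skeletal actin. The slow-fibre genes Tnni1 and Tnnt1 were highest in papillomas 3 and 1, at 1.45 and 2.40. By rank within the array, Casq1, Sypl2 and Actn3 were highest in papilloma 9 and Neb in papilloma 8. Ldb3 and Smpx ranked highest in papilloma 5, Des in papilloma 2, Myl1 in papilloma 3, Myoz1 in papilloma 6 and Myh8 in papilloma 4. Myoz1 was above 0 in all 10 (0.30 to 3.03) and Des below 0 in all 10 (-3.83 to -1.04).

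**Figure D5:**
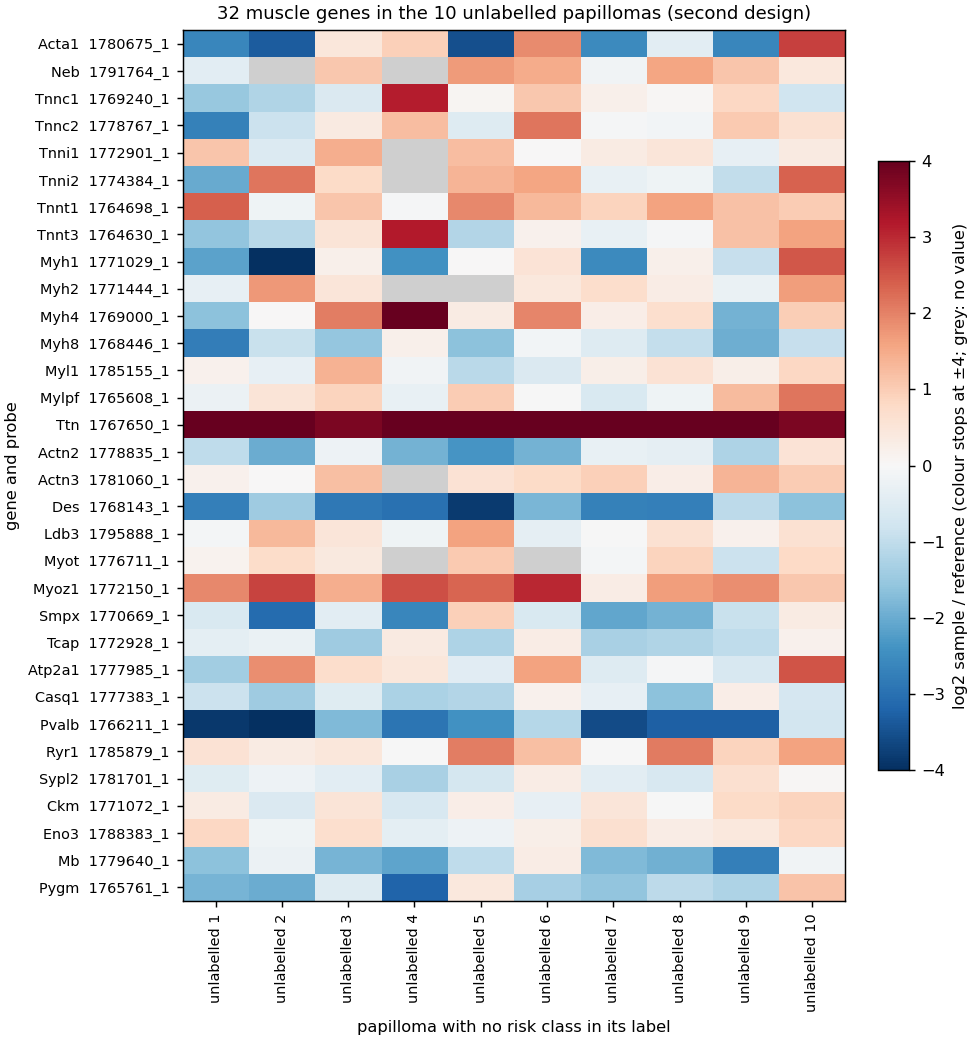
Log2 ratio of sample over reference for the 32 muscle genes of the second design (rows, the probe with the most values for each gene) in the 10 unlabelled papillomas (columns). Red is above the array median, blue below, grey has no value, and the colour stops at 4 on either side. Papilloma 10 is red for Acta1 (2.73), Myh1 (2.49), Atp2a1 (2.51), Tnni2 (2.37) and Mylpf (2.14), while papilloma 4 leads for Myh4 (4.53) and Tnnt3 (3.17).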

How the data were processed

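Two-colour oligonucleotide arrays were deposited as 1 table per design. Per the labels, each array compared a sample with a universal mouse reference, with the sample in Cy3 on 41 arrays and in Cy5 on 1. The deposited values were log2 ratios normalised by the authors in a way not given in the sources used here, and base and direction are not stated. Signs were changed on the 41 arrays with the sample in Cy3. After that, the median of skin genes lay above 0 (0.672 to 4.493) and that of internal organ genes below 0 (-3.049 to -0.085) on all 41. On the remaining array, low-risk 3, whose sign was kept, skin genes lay at 2.362 but internal organ genes at 0.088, so its direction rests on skin genes alone. The base was taken as 2 from the range of values, which a log10 ratio could not reach. The direction is therefore likely, on the basis of skin markers. Each array was centred on its median.

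Probes were named by GEO's platform annotation. 21997 probes on the first design had 1 symbol (16076), several (288, not named) or none (5633), and 36924 on the second had 26926, 203 and 9795. Arrays of the first design held 16286 to 21494 values with an SD of 0.454 to 1.95. Spot intensities were not used, so signal over background is unknown.

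The tests used limma 3.58.1 in R 4.3.3 on all 4 groups, over probes with at least 3 values per group and a value in 70% of samples, keeping per gene the probe with the most values. Benjamini-Hochberg adjustment ran over 18904 probes at a threshold of 0.05. Tested on simulated data for low-risk papillomas against normal skin, 31% of genes changed by 1 log2 unit and 88% of those changed by 2 were recovered, with 6 false calls among 18904. Replicate numbers paired nothing: same-numbered samples of different groups had a median correlation of -0.025 over 37 pairs, and 317 others 0.010.

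Every muscle gene with a probe is named, by role. Of the further muscle, myogenic, synapse, heart and smooth muscle lists, up to 4 genes with the smallest p in low-risk papillomas against normal skin are named, and the other lists are given as counts. The muscle genes and lists were chosen with earlier results of these data known. Normalisation, filters, probe choice, blocks, weights and omitted samples were varied.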

Additional observations from a re-analysis of the deposited data

Results flagged for a closer look

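A sample lay far from the others of its group in 13 of 124 sets of values examined. The sets reuse the same 31 samples, and how many such cases chance would give was not tested. In carcinomas, Myl1 was at 2.31 in carcinoma 2 (others -0.22 to 0.70), Ldb3 at -1.26 in carcinoma 4 (others -0.58 to -0.41) and Sypl2 at -0.81 in carcinoma 1 (others 0.30 to 0.61). In normal skin, Sypl2 was at 0.16 in normal skin 1 (others 1.42 to 2.07) and Tnni2 at 0.84 in normal skin 2 (others -0.74 to -0.40).

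In low-risk papillomas, Pygm was at -2.56 in low-risk 5 (others -0.67 to 0.50), Actn3 at 2.20 in low-risk 6 (others -0.26 to 0.04), and the median of the 30 muscle genes at 0.51 in low-risk 9 (others -0.05 to 0.17). In high-risk papillomas, high-risk 1 was at -8.24 for Sypl2 (others -1.94 to 0.58) and at -9.62 for Smpx (others -1.13 to 1.95). Pygm was at -5.46 in high-risk 2 (others -2.68 to 0.37), Casq1 at -0.67 in high-risk 3 (others -0.24 to -0.05) and Tnnc1 at -1.58 in high-risk 10 (others -0.52 to 0.16). The causes were not tested.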

How the results depend on the processing

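The number of muscle genes called against normal skin was 3 of 30 in low-risk papillomas, 5 in high-risk papillomas and 1 in carcinomas, and changed with many settings. For low-risk papillomas it was 9 with quantile normalisation (2 higher, 7 lower), 1 with probes measured in every sample and 1 with only the groups compared. It was 15 with array weights and 5 with every probe on its own. Within the database ranges 46-47 and 51 (numbers of the submitters' database) it was 1 of 25 and 0 of 28 tested. Acta1 and Tnnc2 had 28 and 24 values in the 31 samples, so a fit requiring every sample did not test them in any comparison. For high-risk papillomas the number called was 8 with quantile normalisation, 3 with probes measured in every sample and 2 with only the groups compared. It was 12 there with array weights and 0 within range 51. Quantile normalisation also moved the calls over all probes, to 1751 for low-risk and 1794 for high-risk papillomas, from 1427 and 948. The calls over all probes with array weights are not given here. For carcinomas the number of muscle genes called was 0 with the mean of all probes and 2 without normal skin 1 and carcinoma 6. It was 6 there with array weights and 0 within range 51. It was 0 in all 3 with the array set as a block and without normal skins 4 and 6. With the database range as a block it was 2 for low-risk papillomas and 0 for high-risk papillomas and carcinomas. No count within an array set is given, because each such fit against normal skin had 1 array in 1 of its groups and shows nothing about stability. Without 1 sample at a time the number of muscle genes called ranged from 1 to 5 in low-risk papillomas. It ranged from 1 to 7 (without normal skin 1) in high-risk papillomas and from 0 to 2 in carcinomas. Between tumour groups it went from 0 to 1 (Eno3) with every probe on its own for high-risk against low-risk papillomas, and to 2 with array weights for carcinomas against low-risk papillomas. With the replicate block it was 3, 3 and 1, and 1 for carcinomas against low-risk papillomas; the numbers paired no samples. The sign turned for Ttn in high-risk papillomas (-0.11 with the mean of all probes) and for Tnnc2 there (0.094 within set A, against 1 normal skin assumed to vary like the other samples). The cause was not tested. Centring, scaling and the value filters of 2 per group left the counts within 1.5 times. The within-batch fits, the single-probe fit and the omission of normal skins 4 and 6 were chosen after seeing the data. The small number of arrays, the empty probes and the unknown background limit the precision.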
